A study of Homo sapiens with 6 samples.

Results

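The ABC (ATP-binding cassette) family was examined in OVCAR8, a human cell line established from an ovarian carcinoma, with and without the peptide hormone relaxin-2 (RLN2). Its members were taken as every gene whose symbol in the deposited count table is ABC, a subfamily letter from A to G and a number. That gave 46 genes of the 58037 gene IDs counted, after 10 lines without counts and 1 repeated line were set aside. All cells stood in serum-free medium for 16 hours first. Cells of 3 libraries were then left untreated (replicates 2, 3 and 4 in the labels), and cells of 3 libraries received 50 ng/mL of recombinant human RLN2 for 8 hours (replicates 1, 2 and 3). The labels speak of triplicates but do not say whether these were separate cultures, so the spread between libraries may be technical. All values come from a single cell line, and in such bulk RNA fewer cells of a kind and less RNA per cell cannot be told apart. The family name does not describe every member: ABCE1, ABCF1, ABCF2 and ABCF3 are soluble proteins without a membrane domain, and ABCC13 is annotated as a pseudogene.

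ABC transporters use the binding and hydrolysis of ATP to move a substrate across a membrane. Drug pumps of the plasma membrane, above all ABCB1 (P-glycoprotein), ABCC1 (MRP1) and ABCG2 (BCRP), are known for lowering the amount of chemotherapeutic drugs in tumour cells, and OVCAR8 is the line from which the ABCB1-overexpressing, drug-selected line NCI/ADR-RES was derived. Other members carry sterols and phospholipids, or sit in the membranes of mitochondria, peroxisomes and lysosomes. The main relaxin-2 receptor, RXFP1, is known to signal through cyclic AMP, and ABCC4 and ABCC5 are among the transporters known to export cyclic nucleotides.

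What the members share is the ATP-binding cassette. Its phosphate-binding loop (Walker A) is shown here as the coding sequence, because its base composition differs widely between members. Some residues of the loop differ between members as well. A search of the principal coding transcript in GENCODE 29 found 2 copies of the loop in 31 of 45 coding members and 1 copy in 13, among them the ABCD and mitochondrial ABCB genes, whose proteins work as dimers. Each line gives 72 bases of coding exon around the first loop, 5′ to 3′, with the 8 codons of the loop in capitals.
ABCD3: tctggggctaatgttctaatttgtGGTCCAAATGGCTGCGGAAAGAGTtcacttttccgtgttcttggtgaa
ABCA2: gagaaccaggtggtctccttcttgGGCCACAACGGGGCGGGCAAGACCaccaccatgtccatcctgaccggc
ABCA5: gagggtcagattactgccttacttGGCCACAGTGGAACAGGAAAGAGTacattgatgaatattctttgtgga
ABCB8: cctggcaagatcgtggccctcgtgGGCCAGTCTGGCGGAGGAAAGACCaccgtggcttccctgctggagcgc
ABCE1: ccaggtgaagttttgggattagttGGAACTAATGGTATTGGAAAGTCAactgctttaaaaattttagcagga
ABCB1: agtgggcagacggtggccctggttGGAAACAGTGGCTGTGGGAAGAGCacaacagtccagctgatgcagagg
ABCB4: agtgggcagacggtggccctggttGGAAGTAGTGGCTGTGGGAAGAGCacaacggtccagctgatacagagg
On GRCh38 the ABCD3 stretch lies at chr1:94498608-94498679 (plus strand, exon 17). The ABCA2 stretch is spliced from exons 21 and 22 at chr9:137016159-137016346 (minus), and ABCA5 is at chr17:69291235-69291306 (minus, exon 11). ABCB8 is spliced from exons 13 and 14 at chr7:151040883-151041130 (plus). ABCE1 is at chr4:145109148-145109219 (plus, exon 5), ABCB1 at chr7:87550195-87550266 (minus, exon 12) and ABCB4 at chr7:87443343-87443414 (minus, exon 12). G and C made up 63.9% of the bases shown for ABCA2 and 43.1% for ABCA5. The share was 68.1% for ABCB8, 44.4% for ABCD3 and 36.1% for ABCE1. Over the whole coding sequence, not only the bases shown, G and C made up 63.3% in ABCA2, 38.9% in ABCE1 and 36.0% in ABCA5. At the third base of codons that contrast was wider, with G or C at 86.05%, 31.4% and 30.3% of codons. The stretches of the neighbouring genes ABCB1 and ABCB4 differ at 4 of 72 bases. Reads that fit both equally well are not in these counts.

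Reads assigned to genes ran from 11939148 to 22426768 per library. Values are given as CPM, read counts scaled to a common library total with TMM factors, and per library in the order untreated replicates 2, 3 and 4 and relaxin-2 replicates 1, 2 and 3. Reads were found for all 13 markers set for an ovarian carcinoma line. Per kilobase of exon KRT18 (384 CPM), VIM (337) and KRT8 (122) were the highest. Other markers of the list were low: MUC16 and SOX17 had under 10 reads in all. Mean levels were 0.948 CPM for CDH1, against 259 CPM for CDH2, 2.48 CPM for FOLR1 and 3.17 CPM for WT1. Summed over 4 hepatocyte markers the level was at most 0.0909 CPM in any library, over 5 leukocyte markers at most 0.750 CPM and over 4 endothelial markers at most 2.88 CPM. The 6 fibroblast markers summed to 10.8 to 19.3 CPM in untreated and 18.2 to 19.0 CPM in treated libraries, mostly from PDGFRB, with 0 reads of DCN. RLN2 had 0 reads and RXFP1 1 read over all 6 libraries. Untreated replicate 2 and relaxin-2 replicate 2 stood apart. Chi-square per degree of freedom between 2 libraries, larger where their counts disagree more, was 45.3 to 100.4 for pairs with relaxin-2 replicate 2. It was 31.8 to 100.4 for pairs with untreated replicate 2 and 2.65 to 12.85 for pairs with neither. In each library, log2 CPM relative to each gene's mean over the libraries was correlated with the transcripts' GC content (16673 tested genes). Pearson r was -0.78 in untreated replicate 2, against 0.60 in relaxin-2 replicates 2 and 3. Relaxin-2 replicate 2 had 27.0% multimapping reads, against 5.31% to 6.19% in the others.

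No ABC gene passed the test for a difference between the groups. Of the 46 members 31 passed the filter on low counts, and 0 of these had an adjusted p under 0.05, nor did any of all 16740 tested genes (0%). The smallest p after Benjamini-Hochberg adjustment over all tested genes was 0.408 in edgeR's quasi-likelihood fit, and ABCA5, ABCB4, ABCF1, ABCA1, ABCB9 and ABCB8 were among the genes at that value. DESeq2 and limma-voom also called 0. Without an adjustment, p was under 0.05 in 7 of the 31, or 22.6%, beside 10.8% of all tested genes (1811 genes, 1677 with DESeq2 and 2058 with limma-voom). Of these 7, 6 were higher after relaxin-2 (6.3% of all tested genes) and 1 was lower (4.52%). The 3 treated libraries lay wholly on one side of the 3 untreated ones in 8 members, or 25.8%, beside 21.4% of all tested genes: above them in 7 (10.8% of all) and below in 1 (10.5%). Fitted values were above 0 in 19 members, or 61.3%, beside 47.8% of all tested genes, and the median log2 fold change was 0.12 against -0.015 over all tested genes. Single libraries moved the count of 7 at an unadjusted p under 0.05: dropping untreated replicate 3 gave 3 (7.43% of all tested genes), and dropping untreated replicate 4 gave 15 (20.8%). Dropping relaxin-2 replicate 2 gave 3 (2.83%), and dropping relaxin-2 replicate 3 gave 2 (3.64%). The share over all tested genes moved in the same direction each time.

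**Figure D1:**
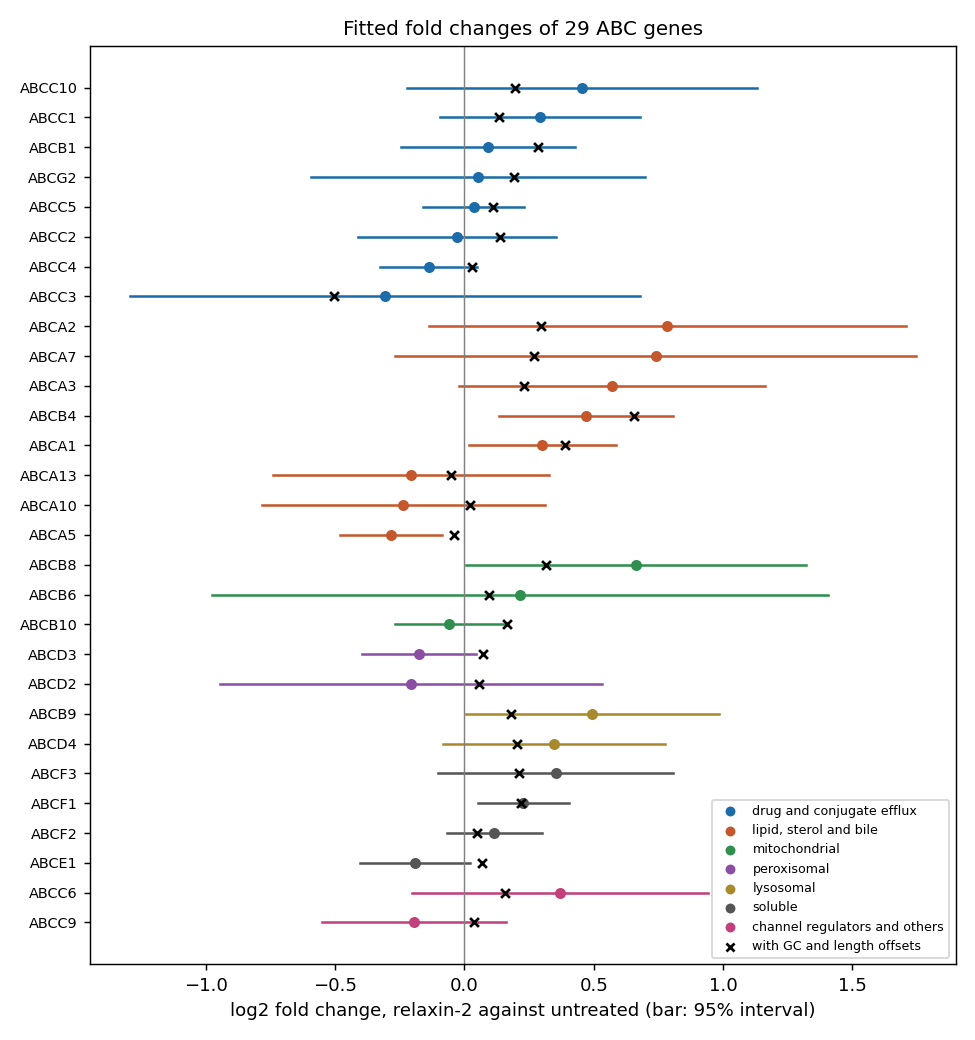
Fitted log2 fold change of relaxin-2 against untreated (x axis) for 29 of the 31 ABC genes that passed the filter (rows), coloured by functional group, with bars for the 95% interval from the edgeR fit. Black crosses give the value after each library's trend on transcript GC content and length was removed; the crosses of ABCA2, ABCA3 and ABCB8 lie nearer 0 than their dots, and those of ABCB4 and ABCA1 do not.

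The drug and conjugate pumps were present at very unequal levels, and none differed beyond the spread between libraries. Per kilobase of exon, ABCC1 was highest with 13.2 ± 2.43 CPM per kb (SD, n = 6 libraries), then ABCC4 with 10.7 ± 0.838 and ABCC5 with 7.65 ± 0.486. ABCB1 had 1.94 ± 0.205 and ABCG2 0.329 ± 0.0788 CPM per kb. ABCC10 had 1.45 ± 0.415. Over the libraries the range of ABCC1 took in that of ABCC4, ABCC5 lay below ABCC4, ABCB1 below ABCC5, and the ranges of ABCB1 and ABCC10 overlapped.

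ABCC1 (chromosome 16, 15949577 to 16143074), which exports glutathione conjugates and anthracyclines, had 65.8, 99.4 and 105 CPM untreated and 98.9, 113 and 118 CPM treated. Untreated replicate 2 was the lowest, and relaxin-2 replicate 1 lay within the untreated range. Its log2 fold change was 0.29 ± 0.17 (SE; 95% interval -0.094 to 0.68), and 0.11 without untreated replicate 2. ABCB1 (chromosome 7, 87503633 to 87713323), the classical pump for taxanes and anthracyclines, had 12.7, 10.1 and 9.80 CPM untreated and 12.02, 12.02 and 10.8 CPM treated, a log2 fold change of 0.090 ± 0.15 (interval -0.25 to 0.43). ABCG2 (chromosome 4, 88090264 to 88231322), a pump for topotecan and urate, had 1.85, 1.98 and 1.09 CPM untreated and 2.0, 1.22 and 1.82 CPM treated. For these ABCG2 levels, which rest on 195 reads in all, the log2 fold change was 0.051 ± 0.28 (interval -0.59 to 0.70). In both ABCB1 and ABCG2 an untreated library lay at or near each end of the range, so the groups overlapped fully. Differences inside these intervals were not excluded by these libraries.

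The cyclic nucleotide exporters ABCC4 and ABCC5 were measured with SEs below the median SE of 0.19 over the 31 tested members. ABCC4 had 103, 96.98 and 90.8 CPM untreated and 94.7, 83.3 and 85.7 CPM treated, with a log2 fold change of -0.14 ± 0.081. ABCC5 had 77.4, 89.7 and 92.2 CPM untreated and 86.1, 92.3 and 87.3 CPM treated, with 0.035 ± 0.085. Untreated replicate 2 held the highest ABCC4 and the lowest ABCC5 value. ABCC10, a pump known for taxanes, had 5.36, 11.7 and 12.6 CPM untreated and 11.7, 14.98 and 13.8 CPM treated, a log2 fold change of 0.45 ± 0.29 and 0.15 without untreated replicate 2, the lowest library. With GC content and length offsets the values were 0.13 for ABCC1, 0.28 for ABCB1, 0.19 for ABCG2, 0.030 for ABCC4, 0.11 for ABCC5 and 0.19 for ABCC10. In the group of 11 pumps 8 were tested, 5 with a value above 0 and 3 below, and 0 had an unadjusted p under 0.05. Their summed level was 269, 313 and 315 CPM untreated and 309.5, 320.4 and 321 CPM treated.

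**Figure D2:**
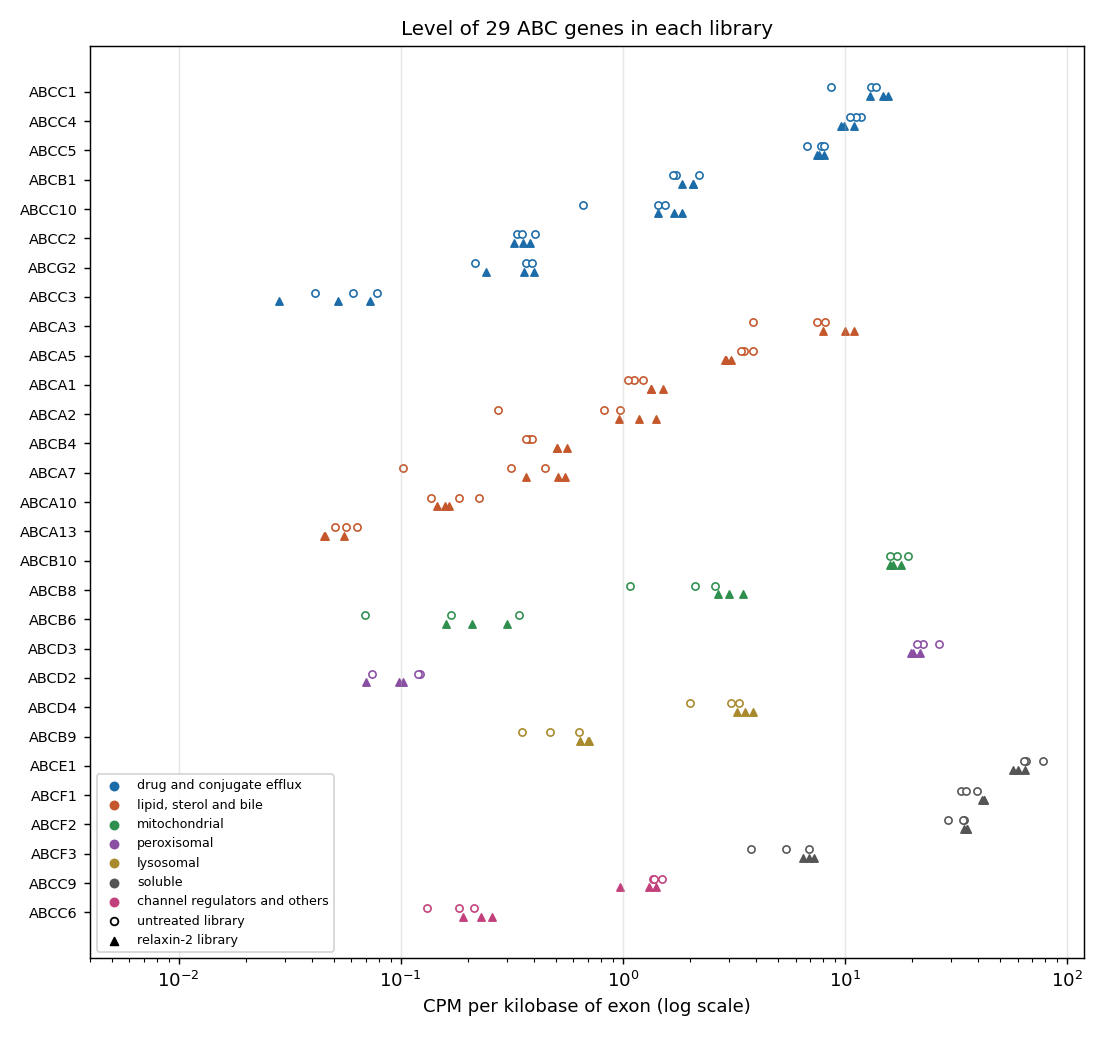
Level of 29 of the 31 tested ABC genes in each library, in CPM per kilobase of exon on a log scale (x axis), with 1 row per gene, open circles for untreated and filled triangles for relaxin-2 libraries. ABCE1, ABCF1 and ABCF2 sit furthest to the right, ABCC3 and ABCA13 furthest to the left, and in the rows of ABCA2, ABCA7 and ABCB8 a single open circle, untreated replicate 2, lies far to the left.

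Lipid transporters held the members with the smallest unadjusted p in either direction, ABCA5 and ABCB4. ABCB4 (chromosome 7, 87401697 to 87480435), which moves phosphatidylcholine to the outer leaflet and into bile, had 2.93, 3.03 and 2.83 CPM untreated and 4.34, 3.92 and 3.91 CPM treated. All treated libraries lay above all untreated ones. Its log2 fold change was 0.47 ± 0.15 (interval 0.13 to 0.81, edgeR adjusted p = 0.408). This rests on 392 reads in all. Leaving out each library in turn gave fold changes of 0.41 to 0.50, and those over all alternatives lay between 0.39 and 0.66. The SE was less stable, as DESeq2 gave 0.47 ± 0.27 (DESeq2 unadjusted p = 0.078). The adjoining ABCB1, on the same strand, showed no such separation.

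ABCA1 (chromosome 9, 104781002 to 104928237), which hands cholesterol and phospholipid to apolipoprotein A-I, had 12.7, 11.98 and 14.1 CPM untreated and 15.2, 15.2 and 17.3 CPM treated. Here too the groups did not overlap, and the log2 fold change was 0.30 ± 0.12 (edgeR adjusted p = 0.408). Over all alternatives it ran from 0.23 to 0.39. ABCG1, which hands sterols to lipoproteins beside ABCA1, had only 14 reads in all, 7 in each group. The ABC lipid genes ABCG4, ABCG5 and ABCG8 had 49, 1 and 0.

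ABCA5 (chromosome 17, 69244311 to 69327244), a lysosomal and endosomal member linked to sterol handling, had 50.9, 46.5 and 44.6 CPM untreated and 40.3, 37.98 and 38.3 CPM treated. Every treated library lay below every untreated one, with a log2 fold change of -0.28 ± 0.086 (edgeR adjusted p = 0.408). The offsets brought it to -0.039, and dropping untreated replicate 2 to -0.23. ABCA3, which loads surfactant lipid into lamellar bodies, had 30.2, 58.6 and 63.3 CPM untreated and 62.4, 85.6 and 77.9 CPM treated. ABCA2, an endolysosomal lipid transporter, had 3.15, 9.44 and 11.2 CPM untreated and 11.02, 16.3 and 13.6 CPM treated. In both genes untreated replicate 2 was the lowest by far and relaxin-2 replicate 2 the highest, and the groups overlapped. ABCA3 had a log2 fold change of 0.57 ± 0.26, 0.30 when untreated replicate 2 was dropped and 0.23 under the offsets. ABCA2 had 0.79 ± 0.40, then 0.39 and 0.30 under the same settings. Of 18 lipid, sterol and bile genes 8 were tested, 5 with a value above 0 and 3 below, and 3 had an unadjusted p under 0.05. The median of those 8 was 0.39, and 0.039 with 1 surrogate variable in the fit.

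The 4 mitochondrial members were all tested, and ABCB8 was the member whose groups did not overlap. ABCB10, an inner membrane transporter linked to haem synthesis, was the most abundant with 17.1 ± 1.29 CPM per kb (SD, n = 6 libraries). ABCB10 had 81.98, 73.2 and 67.9 CPM untreated and 76.1, 67.7 and 70.4 CPM treated. It was highest in untreated replicate 2, and the log2 fold change of -0.058 ± 0.092 turned to 0.16 with the offsets. ABCB8 (chromosome 7, 151028422 to 151047782), an inner membrane member, had 10.1, 19.8 and 24.3 CPM untreated and 25.04, 32.5 and 28.2 CPM treated. The fitted difference was 0.66 ± 0.28 (edgeR adjusted p = 0.408), with 0.32 left under the offsets and 0.37 after untreated replicate 2 was dropped. Relaxin-2 replicate 1 exceeded untreated replicate 4 by less than the spread within either group. The summed mitochondrial level was 130.1, 127 and 124 CPM untreated and 136, 132 and 131 CPM treated.

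In the peroxisomal group ABCD3 (PMP70), which imports fatty acyl-CoA for oxidation, had 22.1 ± 2.44 CPM per kb against 0.0977 ± 0.0222 for ABCD2, a very-long-chain fatty acyl-CoA importer (SD, n = 6 libraries). ABCD3 had 202, 170.0 and 161 CPM untreated and 166, 154 and 152 CPM treated. Untreated replicate 2 was the highest and relaxin-2 replicate 1 lay within the untreated range. The log2 fold change of -0.17 ± 0.096 turned to 0.073 with the offsets.

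Both lysosomal members had values above 0. ABCD4, which releases cobalamin from lysosomes, had 17.6, 26.9 and 29.4 CPM untreated and 31.3, 33.9 and 28.7 CPM treated, a log2 fold change of 0.35 ± 0.19 and 0.15 without untreated replicate 2. ABCB9 (TAPL), a peptide transporter, had 4.68, 6.23 and 8.48 CPM untreated and 8.57, 9.41 and 9.23 CPM treated. Its treated libraries lay above the untreated ones by a narrow margin at untreated replicate 4, with 0.49 ± 0.21 (edgeR adjusted p = 0.408), and 0.18 under the offsets or 0.31 when untreated replicate 2 was dropped.

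The soluble members ABCE1, ABCF1 and ABCF2 were the most abundant of the family, and ABCF3 was lower. ABCE1, which splits ribosomes after termination, had 65.01 ± 7.08 CPM per kb, ABCF1, a factor of translation initiation, 38.96 ± 3.94, ABCF2 33.8 ± 2.40 and ABCF3 6.12 ± 1.30 (SD, n = 6 libraries). ABCE1 lay above ABCF1 in every library, whereas the ranges of ABCF1 and ABCF2 overlapped. ABCF1 (chromosome 6, 30571376 to 30597179) had 150.3, 158 and 178 CPM untreated and 188, 192 and 191 CPM treated. Its groups did not overlap, with a log2 fold change of 0.23 ± 0.077 (edgeR adjusted p = 0.408), and the offsets left 0.22. ABCF2 had 121, 143 and 142 CPM untreated and 144, 148 and 148 CPM treated, again without overlap but with relaxin-2 replicate 1 barely above untreated replicate 3, and a log2 fold change of 0.12 ± 0.079. ABCF3 had 19.7, 28.4 and 35.98 CPM untreated and 33.6, 35.9 and 37.7 CPM treated, with 0.35 ± 0.20. Dropping untreated replicate 2 brought ABCF2 to 0.041 and ABCF3 to 0.16, and dropping untreated replicate 4 brought ABCF3 to 0.57. The offsets left 0.047 for ABCF2 and 0.21 for ABCF3. ABCE1 had 488, 412 and 403 CPM untreated and 406, 358 and 377 CPM treated, with -0.19 ± 0.093, which turned to 0.066 with the offsets. The summed level of the 4 genes was 779, 742 and 759 CPM untreated and 772, 733 and 754 CPM treated, overlapping between the groups.

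Among the channel regulators, ABCC9 (SUR2), a subunit of ATP-sensitive potassium channels, had 17.5, 15.8 and 16.1 CPM untreated and 16.4, 11.3 and 15.2 CPM treated and a log2 fold change of -0.20 ± 0.15, which was -0.059 without relaxin-2 replicate 2, its lowest library. Its relative ABCC8 (SUR1) had 0 reads in all 6 libraries, as did ABCB11, the bile salt pump, and ABCG8. A count of 0 among 113628275 gene reads allows up to 0.0264 CPM by the floor of 3 counts over all libraries, which covers counting error only. ABCA8, ABCA12, ABCB5, ABCC12, ABCC13 and ABCG5 had 1 to 3 reads, and the other 6 untested members, ABCA4, ABCA6, ABCA9, ABCC11, ABCG1 and ABCG4, had at most 52. No difference between groups was detectable in these 15 genes at this depth. The remaining 8 tested members, ABCA7, ABCA10, ABCA13, ABCB6, ABCC2, ABCC3, ABCC6 and ABCD2, had log2 fold changes from -0.31 to 0.74, 3 above 0 and 5 below (edgeR, smallest adjusted p = 0.416). ABCC6 shares long stretches with 2 pseudogenes, and its count is uncertain.

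Fitted differences followed the base composition of the members. Across the 31 members the log2 fold change correlated with the mean GC content of the gene's transcripts at Pearson r = 0.82 and Spearman rho = 0.80, and across 16673 tested genes at 0.71 and 0.73. These are descriptions across genes of the same 6 libraries, which are not independent replicates. Of 15 members with a GC content of 50% or more 14 had a value above 0, the exception being ABCC3, and of 16 under 50% 5 did. In all tested genes 6215 of 7492 at or over 50% lay above 0, and 1764 of 9181 under 50%. The median was 0.37 for the GC-rich and -0.11 for the GC-poor members. Pairs from the same functional group, singled out after their values were seen, lay in this order: ABCB8 (60.7% GC) against ABCB10 (42.2%), ABCA2 (64.2%) against ABCA5 (38.4%), and ABCF3 (56.01%) against ABCE1 (39.6%). ABCB4, at 43.97%, had the highest value among the 16 members under 50%, followed by ABCA1 at 49.2%.

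**Figure D3:**
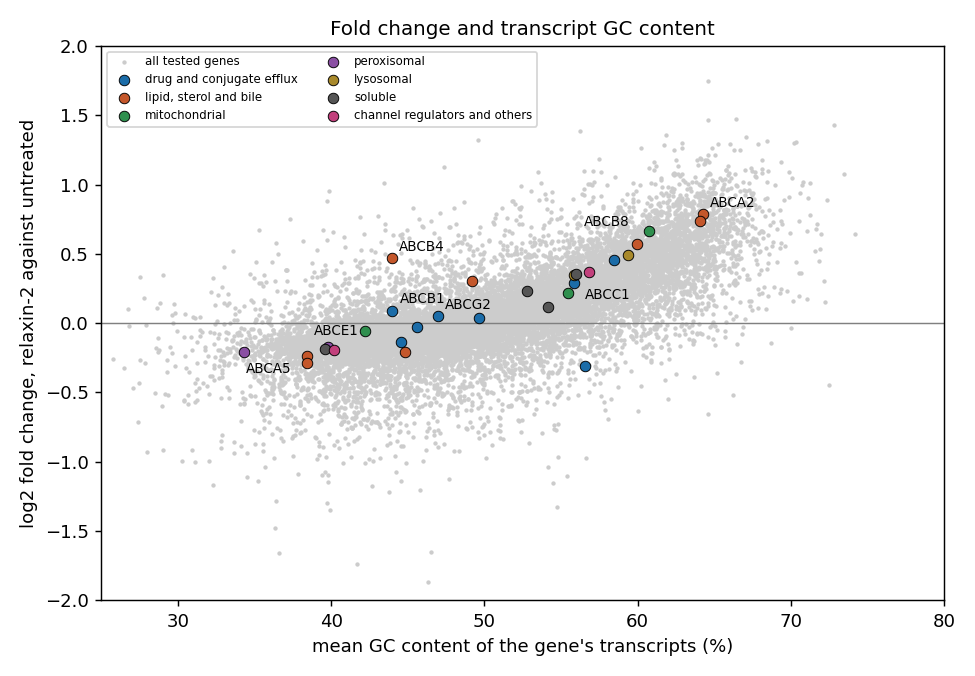
Log2 fold change (y axis) against the mean GC content of each gene's transcripts in percent (x axis) for all tested genes in grey and for 29 of the 31 ABC genes coloured by functional group. The ABC genes follow the band of all genes, from ABCA5 at the lower left to ABCA2 at the upper right, with ABCB4 in its upper part and ABCC3 below it; 4 genes beyond 2 in size lie outside the plot.

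The order was carried by the libraries unequally. In untreated replicate 2 the 15 GC-rich members had a median log2 CPM 0.68 below their own mean over all libraries, and the 16 GC-poor members 0.18 above it. In untreated replicates 3 and 4 the GC-rich medians were -0.11 and 0.15, and in relaxin-2 replicates 1, 2 and 3 they were 0.098, 0.38 and 0.29. So untreated replicate 4 lay above relaxin-2 replicate 1, and relaxin-2 replicate 2 was the highest. Without untreated replicate 2 the medians of the fold change were 0.18 for GC-rich and -0.066 for GC-poor members. With offsets that remove each library's trend on GC content and length they were 0.21 and 0.089, where the median of all tested genes was itself 0.074. After these offsets 21 of the 31 members lay above the median of all tested genes, against 19 before. The groups differed in treatment and in these library trends, and the parts of the 2 in a member's difference cannot be told apart.

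**Figure D4:**
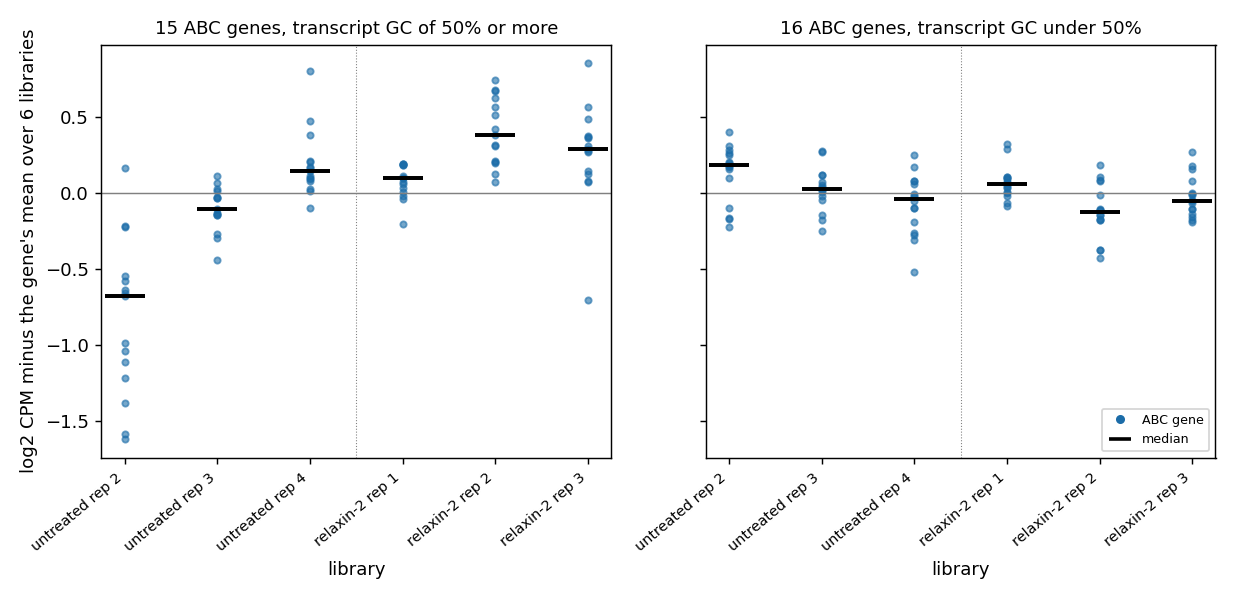
Deviation of log2 CPM from each gene's mean over the 6 libraries (y axis) by library (x axis), for the 15 ABC genes with a transcript GC content of 50% or more (left) and the 16 under 50% (right); points are genes and black bars medians. On the left the median runs from -0.68 in untreated replicate 2 to 0.38 in relaxin-2 replicate 2, and on the right from 0.18 to -0.13.

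Promoters were searched because the relaxin receptor RXFP1 is known to signal through cyclic AMP, whose response element (CRE) is TGACGTCA. RXFP1 itself had only 1 read over all 6 libraries. RefSeq gave a promoter for 26 of the 31 tested members (GRCh38.p14). In the 250 bases before the RefSeq start, on both strands, the CRE was found in 1 of these genes, ABCE1. That is 1 of 38 member promoters, or 2.63%, beside 1.65% of 35116 promoters of all genes. The shorter part TGACG, which the full element contains, was found in 14 of 38 member promoters, or 36.8%, and in 21.2% of all promoters. The sets are unlike, because these members had passed the filter on low counts and the promoters of all genes include untested genes. ABCE1 is shown with its CRE in capitals. ABCA1, whose groups did not overlap, is shown with the GC box GGGCGG in capitals, which occurs there 3 times. That box was found in 57.9% of member promoters and in 42.6% of all promoters.
ABCE1: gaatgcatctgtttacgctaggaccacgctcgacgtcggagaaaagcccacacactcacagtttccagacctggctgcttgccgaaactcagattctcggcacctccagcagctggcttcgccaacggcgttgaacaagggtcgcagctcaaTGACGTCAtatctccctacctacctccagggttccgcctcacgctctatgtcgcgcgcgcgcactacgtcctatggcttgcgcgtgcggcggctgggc
ABCA1: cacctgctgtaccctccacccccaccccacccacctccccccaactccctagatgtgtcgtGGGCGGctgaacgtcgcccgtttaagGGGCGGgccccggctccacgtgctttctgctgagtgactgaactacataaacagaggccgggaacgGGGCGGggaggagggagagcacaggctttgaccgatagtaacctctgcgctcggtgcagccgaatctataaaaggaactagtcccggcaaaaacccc
These are chr4:145098061-145098310 on the plus strand and chr9:104928156-104928405 on the minus strand. ABCE1, the member with the full element, had a log2 fold change of -0.19 and overlapping groups. TGACG was found for 13 of the 26 genes. Of these, ABCB8, ABCB9, ABCF1 and ABCF2 had groups that did not overlap. In ABCA2, ABCA7, ABCB6, ABCC4, ABCC9, ABCC10, ABCD3, ABCE1 and ABCF3 the groups overlapped. No TGACG was found for ABCA1 and ABCA5, whose groups did not overlap, and ABCB4 had no promoter in the set. Whether the motif bears on the differences was not tested. ABCA1 held 61.6% and ABCE1 60.0% G and C in these windows, close to each other although their transcripts differ.

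Genes that work beside the family were taken from a list of 81, of which 74 were tested. None passed (0 of 74, edgeR adjusted p under 0.05), 41 had a value above 0 and 33 below, and the median log2 fold change was 0.064. An unadjusted p under 0.05 was found in 7 of the 74, or 9.46%, near the 10.8% of all tested genes. The smallest p among transcriptional regulators was that of RXRA, the partner of the liver X receptors that drive ABCA1, with 0.64 ± 0.22 and 0.12 with the offsets. Among sterol and lipid carriers it was that of APOL1, an apolipoprotein, with 0.48 ± 0.17 and 0.46. For the peroxisome it was PEX3, which inserts membrane proteins, with -0.27 ± 0.11 and -0.008, and for cobalamin handling MMADHC, with -0.21 ± 0.084 and 0.029. KCNJ11, the pore of potassium channels that ABCC8 and ABCC9 regulate, had 1.06 ± 0.40 and 0.59. In 3 other sets the smallest p belonged to SLC7A11, the cystine importer for glutathione (-0.20 ± 0.096), GCN1 of translation control (0.41 ± 0.18) and TAP1, the ABC peptide transporter of antigen presentation (0.13 ± 0.13). With the offsets these 3 were 0.030, 0.24 and 0.037.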

How the data were processed

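RNA was extracted with TRIzol and made into stranded total RNA libraries (TruSeq), per the labels' protocols. The authors deposited raw counts per gene from STAR on hg38, per the submitters' processing notes. Neither the version nor the annotation release was named there. The reverse-strand column was used, which held 17.8 to 19.8 times the reads of the forward column and equals the deposited merged table for all 24635 shared gene IDs. Names, exon lengths and GC content come from GENCODE 29 (GRCh38). STAR leaves multimapping reads out.

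Genes with low counts were removed by filterByExpr at its defaults, TMM gave the scaling, and groups were compared by the quasi-likelihood F test of edgeR 4.0.16 in R 4.3.3 (two-sided, Benjamini-Hochberg over all 16740 tested genes, adjusted p under 0.05), with treatment as the only term. SE is the fold change divided by the root of F. Alternatives were DESeq2 1.42.0, limma-voom (3.58.1), other scalings, filters, strands and tables, offsets (natural splines, 5 degrees of freedom, on GC content and log length), 1 surrogate variable (sva 3.50.0), leaving out libraries, a replicate block and an adjusted p under 0.10. The fit was tested on simulated data. Library values are given for members with a mean of at least 5 CPM, for ABCB1, ABCC1 and ABCG2, and for the 5 smallest p in each direction. In the neighbour sets the smallest p is named. A few genes that these rules name are not reported here, but they are in the fits and counts. Members and lists were chosen with earlier results of these data known.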

Additional observations from a re-analysis of the deposited data

How the results depend on the processing

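The count of 0 ABC genes past the threshold held at 0.05 under all 19 other fits, as did the 0 among the neighbour genes. With the threshold at 0.10 both were 0 in the fit reported and in every alternative but that with no filter, which called 3 ABC and 5 neighbour genes. The smallest adjusted p of any ABC gene over these fits ran from 0.0662, with no filter, to 0.766. All genes past the threshold numbered 120 with no filter on low counts, 14 with 1 surrogate variable, 3 without both libraries numbered 2 and 1 with the replicate block, and 0 to 3 when each library was left out in turn, the 3 without untreated replicate 2. Tested ABC genes above 0 ran from 18 to 28, the highest with the offsets, which moved the median of all genes by 0.089, and their median log2 fold change from 0.028 to 0.21. Of the 29 members and neighbours named by rule with fold changes, the direction turned as follows. With the offsets ABCB10 was 0.16, ABCC4 0.030, ABCC9 0.036, ABCD3 0.073, ABCE1 0.066, MMADHC 0.029 and SLC7A11 0.030. With 1 surrogate variable ABCB10 was 0.079, ABCC1 -0.019, ABCC10 -0.081, ABCC5 -0.088 and TAP1 -0.042. Without both libraries numbered 2 ABCB10 was 0.061 and ABCC5 -0.060. Leaving out each library gave -0.12 to 0.019 for ABCB10, -0.040 to 0.085 for ABCC5 and -0.15 to 0.20 for ABCG2. The cause was not tested. The replicate number as a block turned ABCG2 to -0.32 and called 0 ABC genes. Numbers 1 and 4 each occur in only 1 group, so the treatment term of that fit rests on the libraries numbered 2 and 3. Both libraries numbered 2 were the ones that stood apart. Libraries with the same number deviated together from their group means in 1 of 2 cases (r = -0.43 for number 2 and 0.19 for number 3). With so few libraries and their trends on GC content, this cannot show whether a number marks a shared culture or day. Members under about 1 CPM rest on few reads, and their intervals are wide.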

Other observations

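Several pseudogenes of the family gave reads. The locus of ABCA17P (chromosome 16, 2339150 to 2426699) overlaps the start of ABCA3 on the opposite strand. ABCA17P had 15.2, 15.8 and 15.8 CPM untreated and 15.3, 15.8 and 15.4 CPM treated, with a log2 fold change of -0.011 ± 0.10. ABCA3 ranged from 30.2 CPM in untreated replicate 2 to 85.6 CPM in relaxin-2 replicate 2. The groups of ABCA3 overlapped, with a log2 fold change of 0.57 ± 0.26, and 0.072 with 1 surrogate variable. The transcripts of ABCA17P hold 47.3% G and C, against 59.95% in ABCA3. ABCA11P had 3.92, 2.98 and 2.77 CPM untreated and 2.84, 2.61 and 2.05 CPM treated (-0.38 ± 0.21, edgeR adjusted p = 0.411). The ABCC6 copies ABCC6P1 and ABCC6P2 had 15 and 46 reads in all, beside 172 for ABCC6.

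Reads on the strand opposite to a member were few for most genes, 0.171% of both strands for ABCD3 and 0.986% for ABCE1. For ABCB9 they made up 67.2%, with 1760 opposite reads against 858 on its own strand. The log2 fold change of ABCB9 was 0.57 in the unstranded counts and 0.49 in the stranded ones. Opposite reads also outnumbered those of ABCC11 (58 against 30) and ABCA12 (62 against 2). At very few reads they did so for ABCG5 (13 against 1), ABCG8 (4 against 0), ABCA8 (3 against 2) and ABCB5 (4 against 3). Among tested members they made up 35.3% for ABCC6, 24.7% for ABCC3 and 12.7% for ABCC10. These genes were singled out after their values were seen.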
